A study of Mus musculus with 96 samples.

Results

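The libraries described here are those of mouse heart ventricle in which Myl7, the regulatory light chain of atrial myosin, exceeded 20 CPM (a gene's count scaled by the total of its library), set against the libraries at or below that level within the same group. The rule found 13 such libraries among 96, called Myl7-high below, and left 83, called Myl7-low. All animals carried an inducible, cardiomyocyte-specific knockout construct for Bmal1 (gene symbol Arntl, an activating factor of the circadian clock), and were given tamoxifen, which induces the knockout, or vehicle. The 4 groups were tamoxifen females (Tam_F), tamoxifen males (Tam_M), vehicle females (Veh_F) and vehicle males (Veh_M), with 24 libraries each: 2 at each of 12 times, every 4 h from circadian time (ct) 18 to ct 62. The labels give neither the ages of the animals nor the promoter that drives the recombinase, vehicle animals carry the same genotype label, and no group without the construct was included, so drug and knockout cannot be told apart. Of the Myl7-high libraries 1 was Tam_F, 2 were Tam_M, 7 were Veh_F and 3 were Veh_M.

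Atrial and ventricular cardiomyocytes share most of their contractile proteins but use different myosin light chains. Myl7 and Myl4 are the regulatory and essential light chains of atrial myosin, and Myl2 and Myl3 those of ventricular myosin. Adult atrial myocytes also make atrial natriuretic peptide (Nppa), a hormone of salt and volume balance, and sarcolipin (Sln), a small inhibitor of the sarcoplasmic reticulum calcium pump. Dkk3, a secreted protein of the dickkopf family, is likewise more abundant in atria than in ventricles. The atrial wall, its nodes, the valve rings, the epicardium and the fat along the atrioventricular groove lie against each other at the base of the heart.

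Library totals ran from 8944955 to 20596194 counts, 14099026 to 20596194 in the Myl7-high and 8944955 to 19646526 in the Myl7-low libraries. Mitochondrial counts were 6.09 to 8.33% of the total in Myl7-high and 6.23 to 10.5% in Myl7-low libraries. The labels do not say that libraries came from separate animals, so p-values speak of library-to-library spread, which may be technical. The library labelled Tam_F_ct54_559, the only Myl7-high library of its group, held 0.272 CPM of Xist, the RNA of the inactive X chromosome, and 11.3 CPM of the Y-linked Ddx3y, which goes against its female label. The other 47 libraries labelled female held 194 to 473 CPM of Xist and at most 0.117 CPM of Ddx3y, and the 48 labelled male at most 0.604 CPM of Xist and 122 to 203 CPM of Ddx3y, so its Ddx3y lay outside the range of either sex. It also held the most Myl7 of all. Results that rest on it are given with and without it. A further 10 Veh_M libraries stood apart in counts of unconfirmed transcripts and were left out in an alternative. Arntl averaged 17.2 ± 7.40 CPM in Tam_F against 20.8 ± 18.9 CPM in Veh_F, and 14.7 ± 8.08 CPM in Tam_M against 16.8 ± 14.4 CPM in Veh_M (SD, n = 24 each). Counts over the whole gene also take in undeleted exons and non-muscle cells, so they check the labels only in part.

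The start regions of 4 atrial genes and a mesothelial gene whose levels the results turn on are shown, with 250 bases before and 50 after the annotated start (RefSeq, GRCm38.p6, 5′ to 3′ on the gene's own strand). Myl7 is at chr11:5898733-5899032 on the minus strand, Nppa at chr4:148000472-148000771, Mybphl (the atrial myosin-binding protein H-like) at chr3:108364661-108364960 and Bmp10 (a growth factor of the adult right atrium in mice) at chr6:87428744-87429043. Upk3b, a uroplakin gene of mesothelium, is at chr5:136038246-136038545, and the last 4 are on the plus strand. Capitals mark GATAA on either strand, the core that GATA factors such as cardiac GATA4 bind.
Myl7: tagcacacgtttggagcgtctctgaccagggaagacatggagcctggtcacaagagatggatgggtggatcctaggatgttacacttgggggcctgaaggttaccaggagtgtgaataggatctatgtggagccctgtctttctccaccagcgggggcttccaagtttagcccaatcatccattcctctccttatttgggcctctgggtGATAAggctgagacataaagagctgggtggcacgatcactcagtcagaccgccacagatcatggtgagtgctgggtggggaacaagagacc
Nppa: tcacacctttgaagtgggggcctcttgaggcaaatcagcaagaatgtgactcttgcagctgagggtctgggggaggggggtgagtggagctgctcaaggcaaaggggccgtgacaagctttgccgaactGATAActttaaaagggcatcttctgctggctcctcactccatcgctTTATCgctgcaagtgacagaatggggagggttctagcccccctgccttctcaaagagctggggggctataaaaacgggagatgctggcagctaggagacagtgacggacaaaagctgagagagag
Mybphl: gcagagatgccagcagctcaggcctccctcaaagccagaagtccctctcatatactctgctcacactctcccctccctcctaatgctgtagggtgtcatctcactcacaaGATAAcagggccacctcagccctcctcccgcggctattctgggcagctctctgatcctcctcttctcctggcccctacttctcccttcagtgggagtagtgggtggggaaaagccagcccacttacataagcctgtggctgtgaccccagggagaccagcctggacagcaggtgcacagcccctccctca
Bmp10: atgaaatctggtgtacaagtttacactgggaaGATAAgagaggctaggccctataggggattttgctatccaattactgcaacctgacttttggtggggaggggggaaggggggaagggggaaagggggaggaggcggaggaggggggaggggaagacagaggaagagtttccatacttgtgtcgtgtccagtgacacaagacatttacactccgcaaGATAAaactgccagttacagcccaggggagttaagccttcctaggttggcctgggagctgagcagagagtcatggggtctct
Upk3b: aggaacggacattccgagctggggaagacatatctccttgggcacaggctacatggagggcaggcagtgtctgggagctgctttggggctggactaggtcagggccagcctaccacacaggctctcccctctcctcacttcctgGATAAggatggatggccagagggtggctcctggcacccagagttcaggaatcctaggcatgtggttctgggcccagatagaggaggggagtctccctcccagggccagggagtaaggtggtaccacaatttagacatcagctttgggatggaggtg
GATAA stood in the 5 windows shown, 2 times in Nppa and in Bmp10 and 1 time in the others, but not in the window of Myl4, which was searched too, held none of the 4 motifs and is not shown. It stood in 25.4% of the 32851 promoters of the same length. CAAGTG, a core bound by NKX2-5, stood in the Myl7 and Nppa windows and in 13.6% of all. AGGTGT, a T-box core, stood in the Nppa window and in 13.7% of all. The MEF2 core motif stood in none of the 5 and in 3.69% of all promoters. Both strands were read. These are matches of letters only.

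Myl7 itself, which chose the libraries, read 724 CPM in Tam_F_ct54_559. In Tam_M it read 471.5 CPM in Tam_M_ct34_526 and 106 CPM in Tam_M_ct50_550. The 2 Veh_F libraries of ct 18 held 28.5 and 47.3 CPM, Veh_F_ct22_408 and Veh_F_ct46_439 held 85.1 and 85.8 CPM, Veh_F_ct34_423 and Veh_F_ct50_445 held 112 and 121 CPM, and Veh_F_ct54_448 held 421 CPM. The 2 Veh_M libraries of ct 18 held 31.7 and 50.8 CPM and Veh_M_ct22_4 held 453.1 CPM. The highest library of each group stood at 421 to 724 CPM, well above the next highest, at 121 CPM. The Myl7-low libraries had a median of 0.645 CPM and a highest value of 13.5 CPM, in Veh_F_ct46_438, so the values nearest the threshold were 28.5 CPM inside and 13.5 CPM outside it.

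The other markers ordered the libraries in much the same way. Myl4 read 943 CPM in Tam_F_ct54_559, 705 and 161 CPM in Tam_M_ct34_526 and Tam_M_ct50_550, 36.5 to 553 CPM in the 7 Veh_F libraries and 41.6 to 564.8 CPM in the 3 Veh_M libraries, against 1.02 to 15.2 CPM (median 2.15) in the Myl7-low libraries. Sln ranged from 10.8 CPM to 307.5 CPM with a median of 39.2 CPM in Myl7-high libraries. In Myl7-low libraries Sln reached at most 4.41 CPM and had no count in 49 of 83, where a count of 0 allows up to 3 counts, 0.296 CPM in the smallest of these 49 (counting error only). Dkk3 ranged from 14.4 to 319 CPM (median 45.98) in the Myl7-high and from 1.10 to 12.96 CPM (median 3.604) in the Myl7-low libraries. For Myl7, Myl4, Sln and Dkk3 the 2 classes did not overlap.

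Nppa overlapped. It ranged from 124 to 1891 CPM with a median of 247 CPM in the Myl7-high libraries, against 33.8 to 456 CPM with a median of 131 CPM in the Myl7-low libraries. It lay above every Myl7-low library in 4 of the 13, the same 4 with the most Myl7: 1891 CPM in Tam_F_ct54_559, 1248 CPM in Tam_M_ct34_526, 1278 CPM in Veh_F_ct54_448 and 1061 CPM in Veh_M_ct22_4. Ventricular myocytes also transcribe this gene, and 13 Myl7-low libraries were above the Myl7-high median.

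**Figure D1:**
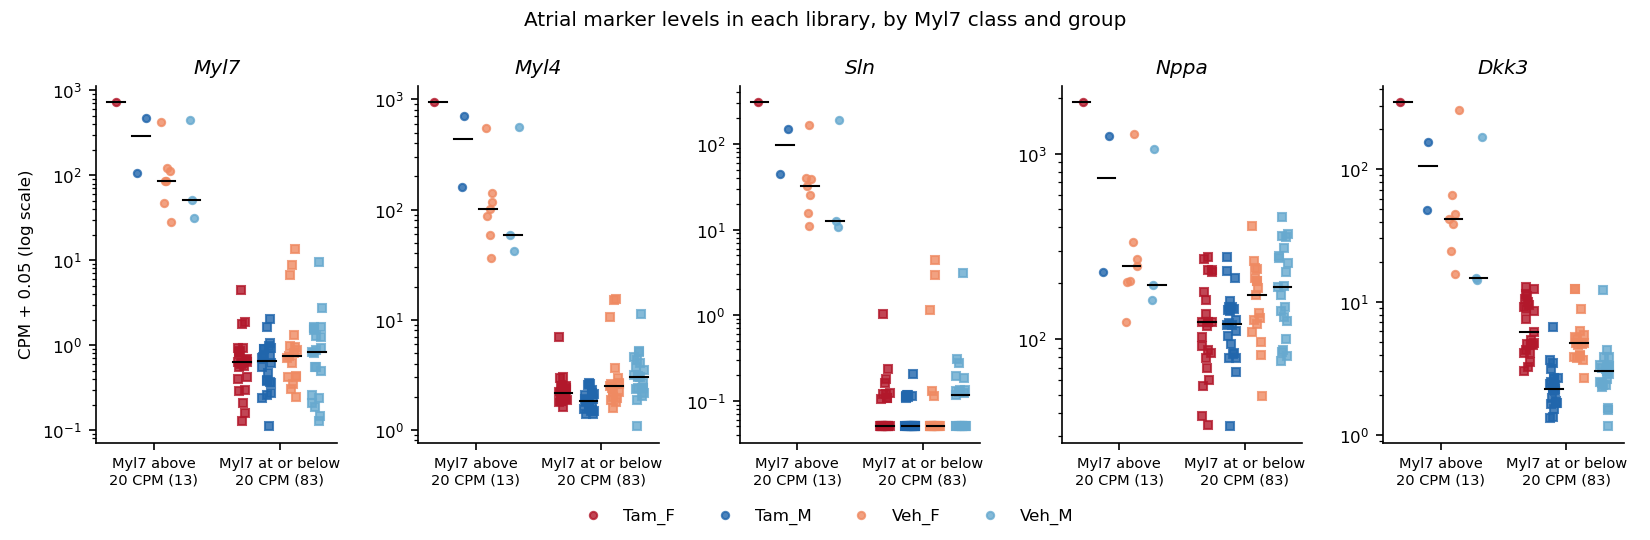
Levels of 5 atrial markers in each library, as CPM + 0.05 on a log axis, for the 13 Myl7-high libraries (circles) and the 83 Myl7-low libraries (squares), in the group order Tam_F, Tam_M, Veh_F, Veh_M within each class; bars are group medians. Myl7, Myl4, Sln and Dkk3 separate the classes, while Nppa overlaps between 124 and 456 CPM.

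Over the 55374 gene names of the table, counting once 2 names that stand on more than 1 row, 7 (0.0126%) had all 13 Myl7-high libraries above all 83 Myl7-low libraries, and of the 15627 tested ones 3 did (0.0192%). They were Myl7, by the rule, and the markers Myl4, Sln and Dkk3 together with Mybphl (3.20 to 158 CPM in Myl7-high, at most 1.12 CPM in Myl7-low), Hamp, the iron hormone hepcidin (1.11 to 18.2 CPM, at most 0.647 CPM), and Tmem163, a zinc transporter (0.873 to 33.4 CPM, at most 0.686 CPM). Sln, Mybphl, Hamp and Tmem163 did not pass the filter on low counts, which asks for counts in a whole group's number of libraries. Reads of Hamp may be split with its near copy Hamp2, so its level is uncertain.

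Within the 13 libraries the atrial genes kept close to fixed proportions while their levels spanned a wide range. The ratio of Myl7 to Myl4 CPM lay between 0.658 and 0.973, so the highest was 1.48 times the lowest, whereas Myl7 itself went from 28.5 to 724 CPM. The ratio of Sln to Myl7 spanned 1.74 times, Mybphl 2.11, Tmem163 2.20, Dkk3 2.26, Lmntd1 2.55 and Nppa 2.999 times. These ratios compare libraries for a fixed pair of genes, not the level of a gene with that of another, for which CPM would have to be divided by length.

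Bmp10 did not keep such proportions. Bmp10 read 430.5 CPM in Veh_F_ct54_448, 3.69 CPM in Tam_M_ct34_526, 0.62 CPM in Tam_M_ct50_550 and at most 0.206 CPM in the remaining Myl7-high libraries, against at most 2.01 CPM in Myl7-low libraries. Tam_F_ct54_559, which held the most Myl7, had only 0.163 CPM of Bmp10.

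**Figure D2:**
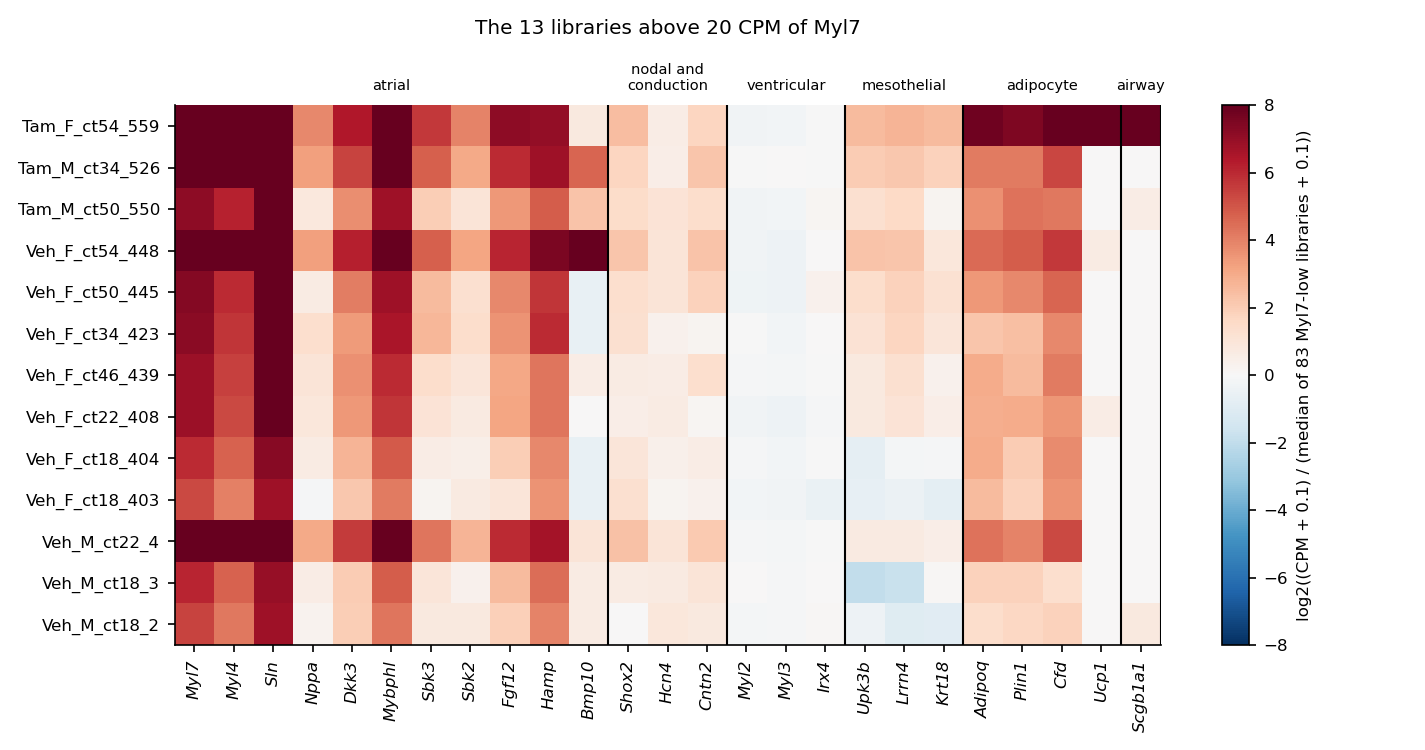
The 13 Myl7-high libraries (rows) by genes of 6 cell sources (columns), coloured by log2 of CPM + 0.1 over the median CPM + 0.1 of the 83 Myl7-low libraries, with values past 8 drawn at 8. Bmp10 stands out in Veh_F_ct54_448 and Ucp1 and Scgb1a1 in Tam_F_ct54_559, while Myl2, Myl3 and Irx4 stay near 0 in all 13.

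Of 11 group and time points with a Myl7-high library, 9 also had a Myl7-low mate. In each of these 9 pairs the Myl7-high library had more Myl7 than its mate by the rule. It also had more Myl4, Sln, Nppa, Dkk3, Mybphl, Sbk3 and Fgf12. The fat-cell gene Cfd and the mesothelial Upk3b were higher than in the mate in all 9 too. At ct 54 Myl4 read 943 CPM in Tam_F_ct54_559 and 2.89 CPM in its mate, and 553 CPM in Veh_F_ct54_448 and 2.14 CPM in its mate. Nppa at the same points read 1891 CPM against 91.3 CPM in Tam_F and 1278 CPM against 121 CPM in Veh_F. The smallest ratio for Myl4 was at ct 46 in Veh_F, where it read 100.5 CPM in the Myl7-high library and 14.9 CPM in a mate that itself held the most Myl7 of the Myl7-low class. Myl2 was higher in 3 and lower in 6 of the 9 Myl7-high libraries than in the mate.

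Myl7-high libraries made up 3 of 48 tamoxifen and 10 of 48 vehicle libraries, a difference that did not pass the test (Fisher's exact test, two-sided, p = 0.0704, adjusted p = 0.160 over 3 tests). By sex they made up 8 of 48 female and 5 of 48 male libraries (exact p = 0.552, adjusted p = 0.552), and over the 4 groups 1, 2, 7 and 3 of 24 (exact p = 0.107, adjusted p = 0.160). By time, 4 of the 8 libraries of ct 18 were Myl7-high, both of Veh_F and both of Veh_M. Then followed 2 at ct 22, 2 at ct 34, 1 at ct 46, 2 at ct 50 and 2 at ct 54, with none at ct 26, 30, 38, 42, 58 or 62.

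The fit of all genes was blocked by group and took out a 24 h rhythm in each group. Since Myl7 chose the classes, its values are a description of that contrast, as Myl7-high minus Myl7-low. At an adjusted p under 0.05 (edgeR quasi-likelihood, Benjamini-Hochberg), 1599 of 15629 tested genes (10.2%) were called, 752 higher (4.81%) and 847 lower (5.42%). The differences were lopsided in size: 78 called genes were at least 2-fold higher and 1 at least 2-fold lower. With library size in place of TMM scaling, 1402 were higher and 402 lower, and with a mean for each group and time, where the 9 pairs alone bear on the contrast, 294 were higher (1.88%) and 10 lower (0.064%), 1.95% of genes in all. Of the 78 genes, 73 were called in each of 13 fits that left out 1 Myl7-high library, 73 without Tam_F_ct54_559 and 73 with a mean for each group and time.

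Myl7 differed by 7.18 ± 0.27 (log2 ± SE), Myl4 by 6.30 ± 0.23, Dkk3 by 4.26 ± 0.20 and Nppa by 1.98 ± 0.25. Without Tam_F_ct54_559 the differences were 6.77, 5.94, 4.05 and 1.53. They also differed in size between groups. For Myl4 the difference was 8.50 ± 0.51 in Tam_F, 7.59 ± 0.39 in Tam_M, 4.93 ± 0.28 in Veh_F and 6.32 ± 0.47 in Veh_M, the order of the Myl7 differences too, and Tam_F rests on 1 library. In bulk RNA, more cells of a type and more RNA per cell cannot be told apart.

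Beyond the 5 markers, 20 of 25 other genes linked with atrial myocytes were tested, and 13 were higher and none lower in Myl7-high libraries, with a median difference of 0.46 against -0.01 over all tested genes. With a mean for each group and time 10 of the 20 were higher, without Kcnj5, Nr2f1 and Chrm2. Sarcolemmal and signalling genes came first. Fgf12, whose product binds cardiac sodium channels, had a median of 5.43 CPM (0.873 to 71.1) in Myl7-high and 0.391 CPM (at most 3.63) in Myl7-low libraries, and differed by 4.998 ± 0.25. Sbk3, a kinase gene, had a median of 22.6 CPM (6.69 to 292) against 5.67 CPM (at most 15.4) and differed by 3.26 ± 0.28. Its paralog Sbk2 differed by 1.75 ± 0.18 and the lipid-transfer gene Stard10 by 1.31 ± 0.13.

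Ion channels followed with smaller differences. Cacna1d, a pore subunit of L-type calcium channels that prevails in atria and nodes, differed by 1.10 ± 0.11. The gap-junction gene Gja5 (connexin 40) differed by 0.88 ± 0.16, and by 0.45 without Tam_F_ct54_559, where it read 84.3 CPM against 8.59 to 33.4 CPM in the remaining 12. Pam, which amidates peptide hormones, differed by 0.69 ± 0.09. Kcnj3 and Kcnj5, which form the acetylcholine-gated potassium channel, differed by 0.60 ± 0.08 and 0.39 ± 0.09, the T-type calcium channel gene Cacna1g by 0.57 ± 0.09, the muscarinic receptor gene Chrm2 by 0.37 ± 0.11 and the transcription factor gene Tbx5 by 0.53 ± 0.07. Nr2f1 (0.31 ± 0.11) was called in 7 of the 13 fits that left out a library. Myh6, the main heavy chain of both chambers in the adult mouse, was at 0.03 ± 0.06, and Kcnk3, Kcna5, Nr2f2, Clu, Nppb and Tecrl were not called either. When genes needed only a total of 1 count per library, 18 of 25 were higher, with Mybphl at 7.74 ± 0.26 and, among the markers, Sln at 8.47 ± 0.31. Bmp10 is among the 18, but its level rests on Veh_F_ct54_448. At that filter 7.5% of 20714 genes were called, 5.05% higher and 2.45% lower. Without strand information in the labels, reads of Gja5, Cacna1d, Pam and Myl4 cannot be told from those of genes that overlap them.

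Pacemaker and conduction genes were partly higher: 5 of 11 tested, none lower, median 0.09. Shox2, a transcription factor of the node, differed by 1.65 ± 0.15, the conduction-system adhesion gene Cntn2 by 1.29 ± 0.32, the pacemaker channel Hcn4 by 0.50 ± 0.13 and Rgs6, a brake on muscarinic signalling, by 0.41 ± 0.07. Tbx3, which represses working-myocardium genes in the conduction system, was at 0.09 ± 0.10 and Tbx18 at 0.05 ± 0.07. Isl1, a defining factor of the sinoatrial node, reached at most 0.434 CPM in Myl7-high and 0.432 CPM in Myl7-low libraries and had no count at the median of either.

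The ventricular side moved little. Of 13 tested ventricular genes, Myl2 (2633 CPM at the median of Myl7-high and 2878 CPM of Myl7-low libraries, difference -0.23 ± 0.05) and Myl3 (2543 and 2941 CPM, -0.23 ± 0.05) were lower and the list's median was -0.01. Both were called in each of the 13 fits that left out a library, and neither with a mean for each group and time. The ventricular transcription factors Irx4 (-0.01 ± 0.05), Irx3 (-0.10 ± 0.09) and Hey2 (0.02 ± 0.08) were not called, and neither was the phospholamban gene Pln (-0.04 ± 0.07). Of 12 genes shared by both chambers, 5 were lower, among them the troponin gene Tnnc1 (-0.24 ± 0.05) and myoglobin (Mb, -0.21 ± 0.05). None of the 5 was called with a mean for each group and time.

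Markers of other tissues at the base of the heart also differed. Of 10 mesothelial and epicardial genes 4 were higher: Lrrn4 (0.96 ± 0.25), Upk3b (0.84 ± 0.25), Krt8 (0.80 ± 0.24) and Krt18 (0.76 ± 0.19). Without Tam_F_ct54_559 Lrrn4 alone of these was called. Of 6 tested valve and endocardial genes 3 were higher, with Cytl1, a cytokine-like gene of valve tissue, at 0.91 ± 0.17 and the Wnt inhibitor Wif1 at 0.78 ± 0.19. Of 19 matrix genes 7 were higher and none lower (median 0.22), with cartilage oligomeric matrix protein (Comp) at 1.26 ± 0.26 and fibromodulin (Fmod) at 0.998 ± 0.20. The summed level of the matrix list was 899.6 to 1570 CPM in Myl7-high and 667 to 1505 CPM in Myl7-low libraries, so the classes overlapped. Schwann cell markers had 2 of 6 higher, fibroblast markers 2 of 9, smooth muscle 1 of 9 and skeletal muscle 1 of 5. Endothelial markers had 1 of 9 higher and 1 lower. These shares stand against 4.81% of all genes higher and 5.42% lower. With a mean for each group and time no Schwann, fibroblast or endothelial gene was called. Cnn1, the smooth muscle gene, was at 0.63 ± 0.20, and at 0.38 ± 0.20 and not called without Tam_F_ct54_559. The endothelial Vwf (0.38 ± 0.13) was called in 5 of 13 fits that left out a library and not without Tam_F_ct54_559, where Egfl7 (-0.30 ± 0.09) was called lower, while Fabp4 (-0.33 ± 0.08) was called lower in all 13. Neither macrophage (8 tested), erythroid (5), lymphocyte (3) nor intracardiac neuron genes (2) had a called member.

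Fat genes kept to the atrial ones less closely. Of 8 listed, 2 passed the filter on low counts, and 1 of these, Cfd, was called higher. The other, Cidea, was at -0.14 ± 0.06 and not called, and was called lower without Tam_F_ct54_559 (-0.20 ± 0.06). At the filter of 1 count per library, 6 of 7 fat genes were higher and none lower, against 5.05% of all genes higher. Cfd (adipsin), a secreted protease of fat cells, read 164 CPM in Tam_F_ct54_559 and 1.06 to 22.4 CPM in the remaining 12, against a median of 0.352 CPM (at most 18.3) in Myl7-low libraries. Its difference was 3.88 ± 0.36, and 3.04 without that library. Adiponectin (Adipoq), below the filter on low counts, read 36.9 CPM in Tam_F_ct54_559 and 0.343 to 3.79 CPM in the remaining 12, against a median of 0.0650 CPM (at most 2.84). The ratio of Cfd to Myl7 spanned 10.8 times over the 13 libraries and that of Adipoq 8.37 times, compared with 1.48 times for Myl7 to Myl4. The carbonic anhydrase gene Car3, abundant in fat but not on that list, differed by 3.73 ± 0.36 and by 2.90 without Tam_F_ct54_559.

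Tam_F_ct54_559 stood apart in tissues that the remaining 12 did not share. Ucp1, the uncoupling protein of brown fat, read 32.9 CPM in it and at most 0.0592 CPM in the others of its class, against at most 7.70 CPM in the Myl7-low libraries. Scgb1a1, a secretoglobin of airway club cells, read 31.8 CPM in it and at most 0.0687 CPM in the others, against at most 3.06 CPM in Myl7-low libraries, while Cldn18 and Sftpc, defining genes of alveolar epithelium, had no count in any Myl7-high library. The desaturase gene Scd1 read 500 CPM in it and 19.8 to 65.6 CPM in the others. Scd1 differed by 1.52 ± 0.19 with it and by 0.74 without. The plasma-cell genes Igkc and Jchain read 15.4 and 9.12 CPM in it, and 7.83 and 5.91 CPM in Veh_M_ct22_4, against at most 4.09 and 2.50 CPM in Myl7-low libraries.

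The other genes among the 20 highest called differences, counted over genes averaging at least 2 CPM in Myl7-high libraries, were not on the atrial list. Ppp1r1b, the phosphatase inhibitor DARPP-32, had a median of 2.33 CPM (0.524 to 24.6) in Myl7-high and 0.299 CPM (at most 1.24) in Myl7-low libraries and differed by 3.88 ± 0.24. Lmntd1 (7.54 against 0.875 CPM at the medians) differed by 3.57 ± 0.24, and 11 of its 13 values exceeded every Myl7-low library. Next came the cytochrome Cyp2e1 (3.602 ± 0.30), the copine Cpne5 (2.90 ± 0.25), haptoglobin (Hp, 2.85 ± 0.27), the basement-membrane gene Fras1 (2.72 ± 0.22), Gm32849 (2.38 ± 0.32), the Wnt antagonist Sfrp5 (2.26 ± 0.25), the calcium channel subunit Cacna2d2 (2.05 ± 0.15) and the metalloproteinase Adamts19 (1.73 ± 0.16). The 12 lowest, by the same rule in Myl7-low libraries, were small differences, from -0.85 ± 0.26 for Gm37033 to -0.56 ± 0.19 for Gm13292. They included the peptide gene Nmb (-0.71 ± 0.17), the retinol-binding gene Rbp7 (-0.64 ± 0.13) and the Ly49 receptor gene Klra9 (-0.62 ± 0.17), and none of the 12 was called with a mean for each group and time.

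Clock genes differed little between the classes. None of 19 was called with all libraries, with a median difference of 0.06 against -0.01 over all tested genes. Arntl was at -0.09 ± 0.17, Clock at 0.00 ± 0.07, Per2 at -0.03 ± 0.19 and Nr1d1 at 0.05 ± 0.12. The largest differences were -0.30 ± 0.12 for Nfil3 and 0.25 ± 0.16 for Dbp. Of 13 fits that left out a Myl7-high library, Nfil3 was called in 1 and Hlf (0.25 ± 0.09) in 2. Hlf was called without Tam_F_ct54_559, at 0.27 ± 0.09.

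The Myl7-low class was not free of atrial transcripts. In 5 of its libraries there was 4.38 to 13.5 CPM of Myl7, and these 5 held 6.87 to 15.2 CPM of Myl4 and 0.981 to 4.41 CPM of Sln, against 1.02 to 5.14 CPM of Myl4 and at most 0.257 CPM of Sln in the remaining 78. They were Veh_F_ct46_438, Veh_M_ct26_7, both Veh_F libraries of ct 26 and Tam_F_ct22_510. A slope on log2(Myl7 CPM + 0.5) was then fitted in the 83 Myl7-low libraries, with Myl7 itself left out of the tested genes. The rule set this class too, by the same Myl7 values that the slope is on, so the fit is not independent of the rule. It was called for 11 of 15730 genes (0.0699%), all of them rising with Myl7. Myl4 had a slope of 0.56 ± 0.05 log2 units per log2 unit of Myl7 (edgeR adjusted p = 3.784e-12), and Sln, when tested at the filter of 1 count per library, 1.85 ± 0.17 (adjusted p = 1.354e-12). Dkk3 (0.25 ± 0.08, adjusted p = 0.541), Nppa (-0.05 ± 0.10, adjusted p = 0.940) and all 20 tested genes of the other atrial list were not called.

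The remaining 10 genes called included mesothelial ones. Upk3b had a slope of 0.58 ± 0.13 (adjusted p = 0.0299) and Muc16, a membrane mucin, 0.60 ± 0.12 (adjusted p = 0.0125), with Fmod at 0.43 ± 0.09 and the growth-factor binding protein gene Igfbp5 at 0.20 ± 0.04. In the 70 libraries at or below 1.5 CPM, a limit set after the data were seen, 52 of 15684 genes were called (0.332%), 47 rising (0.3%) and 5 falling with Myl7 (0.0319%). Myl7 rested there on 1 to 16 counts per library, near the floor. Of the 10 mesothelial genes 9 rose in those 70 libraries, all but Wt1, with Upk1b at 1.61 ± 0.19 (edgeR adjusted p = 3.027e-08), Krt19 at 1.57 ± 0.20 (adjusted p = 1.407e-07), Lrrn4 at 1.55 ± 0.20 (adjusted p = 2.302e-07) and Upk3b at 1.48 ± 0.17 (adjusted p = 3.027e-08). Myl4 was not called in those 70 libraries (0.22 ± 0.09, edgeR adjusted p = 0.349). In the 79 libraries at or below 5 CPM, a limit also set afterwards, 121 genes were called (0.765%), 105 rising (0.664%) and 16 falling (0.101%), with Myl4 at 0.31 ± 0.07 (edgeR adjusted p = 0.003784) and Upk3b at 1.15 ± 0.14 (adjusted p = 7.455e-08). Upk3b itself ran from 0.407 to 39.7 CPM in the Myl7-low libraries and from 2.27 to 52.3 CPM in the Myl7-high libraries. Without the 10 Veh_M libraries that stood apart, Myl4 and Igfbp5 alone were called over the range to 20 CPM. The fits up to 1.5 and 5 CPM were not repeated without those 10.

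**Figure D3:**
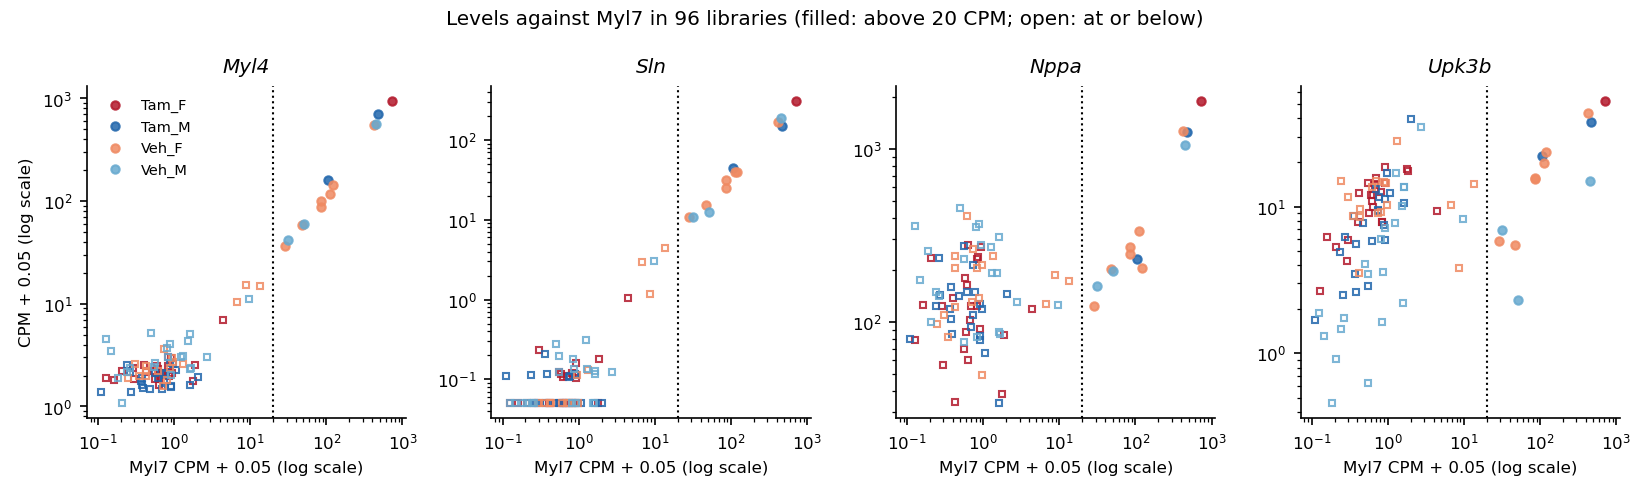
Myl4, Sln, Nppa and Upk3b against Myl7 in 96 libraries, as CPM + 0.05 on log axes; filled circles are Myl7-high, open squares Myl7-low, the dotted line is 20 CPM and colours are groups. Myl4 and Sln climb with Myl7 from about 4 CPM upward, while Upk3b climbs with Myl7 below 1.5 CPM and again among the Myl7-high libraries.

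The study's own comparisons were then fitted with all libraries and without the 13. Removing libraries by their Myl7 trims Myl7 and the genes that keep its proportion, so for those the second value is a description. Tamoxifen minus vehicle in females was called for 4299 of 15629 genes (27.5%) with all libraries and for 3432 of 15731 (21.8%) without the 13, with 3080 called in both, 1215 lost and 338 gained among the genes tested in both. In males the counts were 10936 (70.0%) and 11135 (70.8%). When the 10 Veh_M libraries that stood apart were left out as well, 7414 of 15677 genes were called in males and 4654 in females. The female minus male difference was called for 1201 genes (7.68%) in tamoxifen hearts and 10678 (68.3%) in vehicle hearts with all libraries, and for 1160 (7.37%) and 10048 (63.9%) without the 13. No gene called in both fits changed sign in any comparison. Fewer libraries also enter the second fit, so a lower count is not by itself an effect of the 13.

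Single atrial genes changed far more than these counts. Myl7 averaged 30.9 ± 148 CPM in Tam_F and 39.1 ± 89.8 CPM in Veh_F with all libraries (SD, n = 24 each), and 0.790 ± 0.894 CPM (n = 23) and 2.20 ± 3.76 CPM (n = 17) without the 13. The tamoxifen difference of Myl7 in females was -3.75 ± 1.10 and called with all libraries, and -0.86 ± 0.40 and not called without. Its sex difference in vehicle hearts was 3.36 ± 1.05 and called, and 0.47 ± 0.41 and not called without the 13. The difference of sex differences, tamoxifen minus vehicle, was -5.19 ± 1.77 and called, and -0.23 ± 0.58 and not called without.

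Myl4 in females was lower with tamoxifen in both fits, by -2.15 ± 0.79 with all libraries and -0.70 ± 0.19 without the 13. The second fit kept the 5 Myl7-low libraries with the most Myl7. Among them Veh_F_ct46_438 and both Veh_F libraries of ct 26 held 10.5 to 15.2 CPM of Myl4, and Tam_F_ct22_510 held 6.87 CPM. Myl4 then averaged 4.29 ± 4.54 CPM in Veh_F (n = 17) and 2.35 ± 1.05 CPM in Tam_F (n = 23). How far the -0.70 rests on these libraries was not tested. In males the sign of Myl4 differed between the fits: -0.70 ± 0.20, called, without the 13, and 0.45 ± 0.84, not called, with all libraries. Without the 13, Dkk3 was higher in female than in male tamoxifen hearts (1.54 ± 0.18, called). It then averaged 7.11 ± 3.23 CPM in Tam_F (n = 23) and 2.40 ± 1.10 CPM in Tam_M (n = 22). Dkk3 kept close to the proportion of Myl7 in the 13, so this value is a description. With all libraries the sex difference was 0.90 ± 0.54 and missed the threshold (edgeR adjusted p = 0.352). In vehicle hearts Dkk3 was called in both fits, at 1.59 ± 0.55 with all libraries and 0.94 ± 0.20 without. Sbk3 was lower with tamoxifen in males and in females without the 13 (-0.79 ± 0.25 and -0.80 ± 0.25, both called), and not called in either sex with all libraries (-0.46 ± 0.47 and -0.40 ± 0.45).

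**Figure D4:**
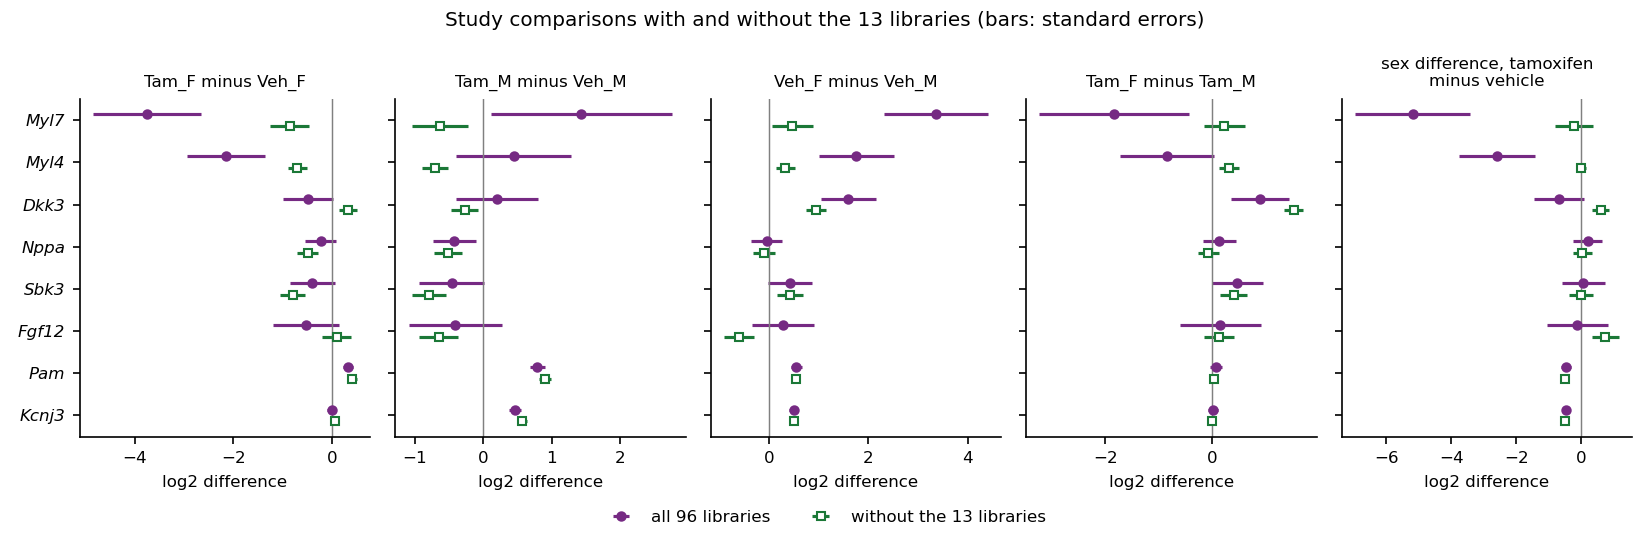
Log2 differences with standard errors for 8 atrial genes in the 5 study comparisons, fitted with all 96 libraries (filled circles) and without the 13 Myl7-high libraries (open squares). Myl7 and Myl4 shift most and their bars shorten, while Pam and Kcnj3 hardly move.

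Genes outside the atrial lists that shifted most were picked by a rule on the change between the fits. Cacna2d2 in the female tamoxifen comparison was at -0.80 ± 0.27, called, with all libraries and at -0.39 ± 0.16, not called, without the 13. In tamoxifen hearts the female minus male difference of Scd1 was 0.69 ± 0.23 with all libraries and 0.01 ± 0.09 without, and that of the fatty acid elongase Elovl6 was 0.69 ± 0.21 and 0.28 ± 0.13. Both were called only with all libraries, and both were high in Tam_F_ct54_559 (Elovl6 read 33.1 CPM in it and 1.21 to 5.09 CPM in the other 12). Jchain had an interaction of 1.22 ± 0.45, called, and 0.06 ± 0.35, not called, without the 13. In the other direction the tamoxifen difference of the adipocyte gene Adig in females was -0.77 ± 0.29 with all libraries and -1.62 ± 0.24 without, and that of Comp was 1.28 ± 0.27 and 1.68 ± 0.29, each called in both. In males the tamoxifen difference of the transcription factor gene Nfe2l3 was 4.11 ± 0.35 with all libraries and 5.01 ± 0.41 without, and that of the nucleotidase gene Nt5c1a was 2.23 ± 0.23 and 2.66 ± 0.23. The female minus male difference of haptoglobin (Hp) in vehicle hearts was -1.01 ± 0.43 with all libraries and -1.73 ± 0.31 without, and those of the platelet genes Tubb1 and Ppbp were -1.27 ± 0.42 and -1.55 ± 0.42 with all and -1.95 ± 0.50 and -2.14 ± 0.49 without. All of these were called in both fits. The Y-linked Eif2s3y, Kdm5d and Ddx3y were among the genes whose sex difference in tamoxifen hearts shifted most, and they were called in both fits. Females should have no count of them, so no fold is given.

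Since the Myl7-high libraries fall on 6 of the 12 times, daily rhythms were read both ways too. Myl4 had a fitted amplitude of 3.61 log2 in Tam_F, 3.56 in Tam_M and 2.92 in Veh_M and was called rhythmic in all 3 with all libraries. Without the 13 its amplitude was 0.26, 0.07 and 0.39 in the same groups and it was called in none of them. In Veh_F the order was the opposite, with 1.66 not called and 1.16 called without its 7 Myl7-high libraries, which left no library at ct 18, while both libraries of ct 26 were among the 5 Myl7-low ones with the most Myl7. Dkk3 was called rhythmic in Tam_F (1.46) and Veh_M (2.03) with all libraries and in neither without (0.23 and 0.17). Fgf12 was called only with all libraries in Tam_F (2.71, and 0.78 without the 13) and Veh_F (1.72 and 0.48), and only without the 13 in Veh_M (1.52 and 0.90). Of 72 genes that were called at least 2-fold higher in Myl7-high libraries and tested in both fits, 33 were called rhythmic in Tam_F with all libraries (17.1% of all genes), and 26 of those were not called without the 13. In Tam_M 6 were called and 5 of them lost (8.03% of all genes called), in Veh_M 19 and 12 lost (55.2%), and in Veh_F 16 and 6 lost (34.5%). Without the 13, 4 others were gained in Tam_F, 2 in Tam_M, 6 in Veh_M and 11 in Veh_F. The 72 genes were picked for being high in the 13 libraries, so these counts describe that choice and test nothing. Over all genes tested in both fits, 2183 stayed called and 488 were lost in Tam_F, and 749 and 503 in Tam_M. In Veh_M 6935 stayed and 1692 were lost, and in Veh_F 4197 and 1194. Gained over all genes were 98 in Tam_F, 33 in Tam_M, 219 in Veh_M and 816 in Veh_F.

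The counts of rhythmic genes moved less. With all libraries and without the 13 they were 2675 and 2284 in Tam_F (17.1% and 14.5% of tested genes), 5396 and 5023 in Veh_F (34.5% and 31.9%), and 8632 and 7178 in Veh_M (55.2% and 45.6%). In Tam_M they were 1255 and 782 (8.03% and 4.97%), a change of more than 1.5 times. All 13 were left out of a fit that the 4 groups share, 2 of them from the 24 of Tam_M. No fit left out those 2 alone. Arntl was called rhythmic in all 4 groups in both fits, with amplitudes of 0.87 in Tam_F, 0.87 in Tam_M, 2.38 in Veh_F and 2.05 in Veh_M with all libraries and 0.87, 0.79, 2.40 and 2.06 without.

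**Figure D5:**
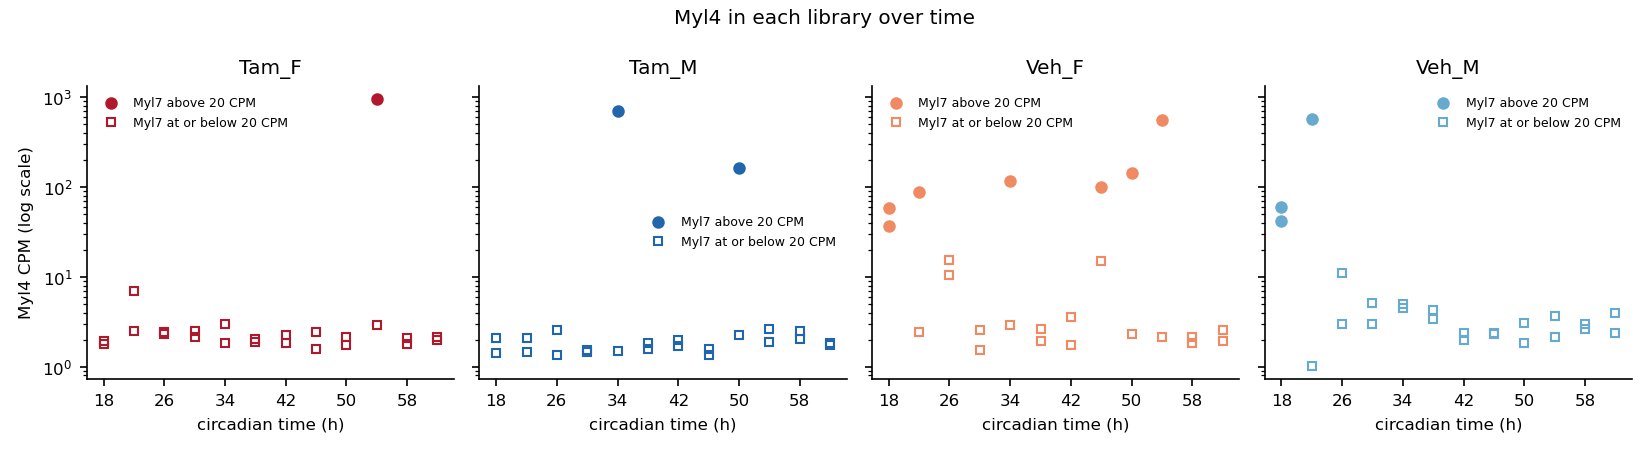
Myl4 CPM (log axis) in each library against circadian time in the 4 groups, with Myl7-high libraries as filled circles and Myl7-low libraries as open squares. The filled circles lie at 36.5 CPM or more at ct 18, 22, 34, 46, 50 and 54, and the open squares at 15.2 CPM or less.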

How the data were processed

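RNA from ventricles was sequenced in 96 libraries. The authors deposited raw counts per gene in 1 table of 55376 rows, and the submitters' processing notes name HISAT2, Picard and HTSeq and the builds GRCm38 and mm10, with versions and strand setting not given in the sources used here. A total of 54486 rows carry a GENCODE M21 symbol. Counts were tested with edgeR 4.0.16 in R 4.3.3: TMM scaling, genes kept by counts of about 10 in a group's number of libraries, quasi-likelihood tests, Benjamini-Hochberg adjustment, calls at an adjusted p under 0.05. Each fit held a mean and a 24 h cosine and sine per group plus the term tested. Log2 differences are the fitted ones. Class membership was compared with Fisher's exact test by full enumeration. DESeq2 1.42.0, other scalings, filters, thresholds and sets of libraries were alternatives. The fits were tested on simulated data.

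The members and gene lists were chosen with earlier results of these data known. Named genes are the atrial and ventricular lists, the 20 highest and 12 lowest called differences averaging at least 2 CPM, the 10 steepest called slopes, the 6 genes that shifted most in each study comparison, and up to 4 examples of each other list. Tmem163, Igfbp5 and the genes singled out for the library labelled Tam_F_ct54_559 were chosen after their values were seen. Counts of the 2 libraries at each of 48 points were compared by chi-square, which averaged 3.86 to 99.6 over genes, so no pair was 1 library deposited again. Promoters were found for 3 of the 5 markers. Some genes that the rule names are not reported here.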

Additional observations from a re-analysis of the deposited data

Results flagged for a closer look

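Among the 7 Myl7-high Veh_F libraries, Veh_F_ct54_448 lay far above the others. Its gap to the nearest library, as a share of the group's range, was 0.764 for Myl7, 0.794 for Myl4, 0.817 for Sln, 0.817 for Nppa, 0.820 for Dkk3, 0.796 for Mybphl, 0.9997 for Bmp10 and 0.657 for Adipoq, all above Dixon's 95% critical value for 7 samples. These 7 libraries were picked by Myl7 and most of the other genes keep its proportion, so the values are not separate observations, and chance alone passes that value in about 1 of 20 groups. On the log2 scale, tried after the data were seen, the shares were 0.462 for Myl7 and 0.440 to 0.574 for the 7 genes without a count of 0, and Nppa alone passed.

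The tamoxifen effect differed between females and males, as female minus male on the log2 scale, by -5.19 for Myl7, 1.22 for Jchain, 1.38 for Igkc, 1.13 for Comp, 1.20 for Apol11b and 1.51 for Xlr4a, each called by edgeR with all libraries. Without the 13 Myl7-high libraries the values were -0.23 for Myl7 and 0.06 for Jchain, neither called, and 0.70 for Igkc, 1.75 for Comp, 1.70 for Apol11b and 2.01 for Xlr4a, all called.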

How the results depend on the processing

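No analysis paired by replicate number was possible, because the groups share no such numbers. The fit with a mean for each group and time compares libraries of the same group and time, which no number pairs. The planned filter of a total of 1 count was not run to a result, since the dispersions could not be estimated, and a total of 1 count per library took its place. Of the alternatives for single genes, 1528 values kept direction and call, 118 lost the call, 12 gained it and 8 changed sign.

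The 1599 genes called between the classes were 1203 (without Veh_M_ct22_4) to 2232 (without Tam_M_ct34_526) when 1 Myl7-high library was left out. They were 304 with a mean for each group and time, 616 at a threshold of 50 CPM, and 348 within Tam_F, 74 within Tam_M, 84 within Veh_F and 371 within Veh_M, where fewer libraries enter. DESeq2 called 1637. The 11 called slopes were 30 without time terms, 1 with an offset of 2 CPM, 52 up to 1.5 CPM, 121 up to 5 CPM and 2 without the 10 Veh_M libraries that stood apart. The cause was not tested.

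Without the 13 and those 10 libraries, the sex difference was called for 1889 genes in tamoxifen and 6711 in vehicle hearts and the interaction for 4246. The tamoxifen difference was then called for 4654 genes in females and 7414 in males. Rhythm in Tam_M was called for 782 genes without the 13. With the class as a term, the tamoxifen difference in females was 0.058 for Myl7, 0.13 for Myl4 and 0.77 for Dkk3, the sex difference of Myl4 in vehicle hearts was -0.19, and the interaction was 0.074 for Myl7 and 0.91 for Dkk3. The male tamoxifen difference of Myl4 was -0.70 without the 13 and -0.69 without those 10 as well. For class membership the adjusted p was 0.0601 at 10 CPM and 0.572 at 50 CPM for the 4 groups and for treatment.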
